A study of Homo sapiens with 12 samples.

Results

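MHC class I and its loading machinery was followed in decitabine-treated HL-60 cells through 9 genes chosen by name from the 60240 genes of the deposited table: the heavy chains HLA-B, HLA-C, HLA-E and HLA-F, the light chain B2M, the peptide transporter subunits TAP1 and TAP2, the loading factor TAPBP and the transactivator NLRC5. All 9 passed the filter on low values, which asked for a normalised count of at least 10 in at least 2 libraries and left 16152 genes to test. HL-60 is an established human promyelocytic leukaemia line, here of wild-type genotype. The treated cells were given decitabine, a cytidine analogue that traps DNA methyltransferases on DNA, at 100 nM at 0, 24 and 48 h, and RNA was taken at 6, 72 and 120 h. The control cells were given DMSO, the vehicle, and were sampled at the same times. Each of the 6 groups was plated as duplicate wells of this 1 line, so p-values cover only the spread between those wells, which may be technical. The table holds values for 11 libraries, 2 per group except DMSO at 72 h, which has 1 and therefore no SD.

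Class I molecules show peptides from inside the cell to CD8+ T cells. A heavy chain folds with beta-2-microglobulin in the endoplasmic reticulum, where TAP1 and TAP2 form the channel that brings in peptides made by the proteasome and tapasin (TAPBP) holds the empty heavy chain at that channel until a peptide fits. HLA-B and HLA-C are classical heavy chains, HLA-E presents signal peptides of other class I chains to the NK-cell receptor CD94/NKG2A, and HLA-F is a non-classical heavy chain. NLRC5 has no DNA-binding domain of its own and is recruited to the proximal class I promoters by factors on the S/X/Y boxes, while NF-kB and interferon response factors act through elements just upstream.

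On the GRCh38 build, 7 members lie in the MHC region of chromosome 6. HLA-F is at chr6:29722775-29738528 and HLA-E at chr6:30489467-30494205, both on the plus strand. HLA-C is at chr6:31268749-31272130 and HLA-B at chr6:31269491-31357188, both on the minus strand, and the annotated HLA-B range runs over HLA-C. TAP2 (chr6:32821833-32838780), TAP1 (chr6:32845209-32853978) and TAPBP (chr6:33299694-33314387) are also on the minus strand. B2M is at chr15:44711487-44718877 and NLRC5 at chr16:56989485-57083531, both on the plus strand. All are protein-coding genes. The heavy chains are near-identical copies of one another in long stretches, and no source used here says how 50-base reads were shared between them, so the split between heavy chains is uncertain, as is their total where other class I sequences share reads with them.

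The 250 bases before the start of HLA-B, HLA-C, HLA-F, B2M and TAP1 are shown because they hold the elements through which class I genes are known to be controlled. They come from RefSeq, GRCh38.p14, and 7 of the 9 members matched; HLA-E and NLRC5 are named only. Each runs 5′ to 3′ on the gene's own strand, and capitals mark letters that match, on either strand, one of 4 motifs: CCAAT (the Y box, bound by NF-Y), TGACG (the core of a CRE-like X2 box), an interferon response core (GAAA, any 2 bases, GAAA) and an NF-kB-like site (GGGA, any 4 bases, CC). Matches that touch or overlap run together. The windows are chr6:31357180-31357429 (minus) for HLA-B, chr6:31272093-31272342 (minus) for HLA-C, chr6:29723184-29723433 (plus) for HLA-F, chr15:44711267-44711516 (plus) for B2M and chr6:32853705-32853954 (minus) for TAP1, the upstream one of its 2 listed starts.
HLA-B: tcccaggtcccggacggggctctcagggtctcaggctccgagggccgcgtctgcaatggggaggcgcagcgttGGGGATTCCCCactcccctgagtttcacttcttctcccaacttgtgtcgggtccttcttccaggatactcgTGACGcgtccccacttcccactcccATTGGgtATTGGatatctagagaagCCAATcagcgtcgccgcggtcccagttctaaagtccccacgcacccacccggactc
HLA-C: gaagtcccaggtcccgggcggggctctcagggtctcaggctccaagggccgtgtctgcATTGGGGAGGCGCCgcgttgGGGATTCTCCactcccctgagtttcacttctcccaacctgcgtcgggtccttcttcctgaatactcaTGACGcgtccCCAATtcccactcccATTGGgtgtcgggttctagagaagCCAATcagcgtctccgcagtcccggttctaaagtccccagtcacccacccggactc
HLA-F: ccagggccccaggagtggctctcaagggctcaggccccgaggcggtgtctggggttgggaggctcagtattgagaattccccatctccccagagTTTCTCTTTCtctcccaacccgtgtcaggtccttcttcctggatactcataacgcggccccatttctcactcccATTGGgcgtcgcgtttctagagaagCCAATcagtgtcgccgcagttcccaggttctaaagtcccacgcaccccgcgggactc
B2M: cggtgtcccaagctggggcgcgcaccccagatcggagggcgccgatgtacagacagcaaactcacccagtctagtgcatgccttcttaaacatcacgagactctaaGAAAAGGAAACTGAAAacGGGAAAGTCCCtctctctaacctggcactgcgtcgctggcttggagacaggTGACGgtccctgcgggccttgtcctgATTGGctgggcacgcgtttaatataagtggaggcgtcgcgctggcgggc
TAP1: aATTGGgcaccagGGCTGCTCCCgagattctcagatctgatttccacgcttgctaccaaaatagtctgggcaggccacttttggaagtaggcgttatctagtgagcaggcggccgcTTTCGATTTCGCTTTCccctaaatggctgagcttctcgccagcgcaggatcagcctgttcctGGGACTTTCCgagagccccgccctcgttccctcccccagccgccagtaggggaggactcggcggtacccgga

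The HLA-B and HLA-C windows shared 89% of aligned bases, HLA-B and HLA-F 80.4%, and HLA-C and HLA-F 78.2%. CCAAT occurred 3 times before HLA-B, 4 times before HLA-C, 2 times before HLA-F and 1 time each before B2M and TAP1. All 3 heavy chains held it on the gene strand from position -57 or -56, counted back from the start. They also held it on the other strand from position -82, -81 or -80. Which match is the Y box cannot be told from the letters alone. TGACG occurred 1 time each before HLA-B, HLA-C, B2M and TAP2. The interferon response core, as a pair of overlapping matches, stood before B2M, TAP1 and TAPBP, and as a single match before HLA-F and TAP2. HLA-B and HLA-C held no match to this exact pattern. Looser forms of the element were not searched, so it is not shown to be absent there. The NF-kB-like site occurred 2 times each before HLA-B, HLA-C, B2M and TAP1 and 1 time before TAPBP. In HLA-B and B2M these 2 matches overlapped on opposite strands, and in HLA-C 1 of them shared a base with a CCAAT match. Of 35116 RefSeq promoters read over the same length, 32% held CCAAT, 21.2% TGACG, 3.02% the interferon response core and 22.6% the NF-kB-like site. These are letter matches and not measured binding. CG dinucleotides, where DNA methyltransferases act, numbered 17 before HLA-B, 15 before HLA-C, 13 before HLA-F, 18 before B2M, 16 before TAP1, 19 before TAP2 and 10 before TAPBP, against a median of 11 over all promoters. No methylation was measured.

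**Figure D1:**
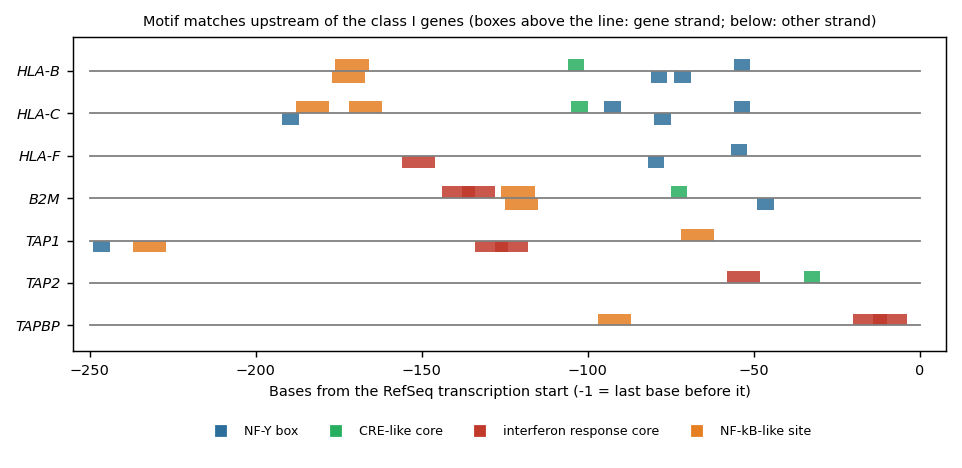
Motif matches in the 250 bases before the RefSeq start of 7 members, with distance from the start in bases on the x axis and a line per gene; boxes above a line are on the gene's strand and boxes below it on the other strand. HLA-B, HLA-C and HLA-F share blue NF-Y boxes close to -56 on the gene's strand and close to -81 on the other. B2M, TAP1 and TAPBP each carry a pair of overlapping red interferon response cores.

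The libraries had an estimated depth of 14427331 to 32908419 counts. The 2 decitabine 72 h libraries differed from each other by a median absolute log2 difference of 0.59, against 0.19 to 0.26 in the other pairs. A single transcript, FP671120.7, took 3.89 to 10.86% of the counts of the 4 libraries at 120 h and 5.25% of decitabine 72 h replicate 1, and at most 0.79% of the other libraries, decitabine 72 h replicate 2 included. Markers of HL-60 promyelocytes summed to 109751 to 195828 normalised counts in every library, so each carried the markers of the labelled line. Markers of other cell types differed by treatment at 120 h, when 9.91% of all genes tested were called higher. The 7 T and NK markers summed to 970.5 to 975 in decitabine 120 h cells, against 114 to 118 in DMSO 120 h cells. Of the 5 tested, 4 rose. The 6 monocyte and dendritic-cell markers summed to 375 to 421 in decitabine 120 h cells, against 55.9 to 72.6 in DMSO 120 h cells. All 4 tested rose. The 8 epithelial, stromal and endothelial markers totalled 1823 to 1897 in decitabine 120 h cells, against 453 to 516 in DMSO 120 h cells. Of the 3 tested, 1 rose. The 5 B cell markers summed to 18.4 to 25.9 in decitabine 120 h cells, against 4.19 to 6.56 in DMSO 120 h cells. Of the 2 tested, 0 were called. All 8 HL-60 markers were tested, and 1 of them was called higher and 0 lower at 120 h. The log2 fold change was above 0 for 2 of the 8, with a median of -0.14. They summed to 122981 to 133674 in decitabine 120 h cells, against 140723 to 195828 in DMSO 120 h cells. CD8A, a T-cell gene that is not among those 7 T and NK markers, was listed at 0 in all 11 libraries. Which cells carried the markers was not tested. The part of these markers and of FP671120.7 in the results below was not tested. In bulk RNA, a change in the number of cells that express a gene and a change in its RNA per cell cannot be told apart.

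At 120 h, 6 of the 9 members rose in decitabine cells: HLA-E, HLA-C, HLA-B, NLRC5, TAP1 and B2M, by 2.01 to 3.48 times in the group means. None fell. Called means a Benjamini-Hochberg adjusted p under 0.05 over all 16152 genes in limma's moderated test on log2(normalised count + 1), and at that threshold 9.91% of all genes were called higher and 6% lower at 120 h. The members' median log2 fold change was 1.23, against 0.07 over all genes. The members were chosen with earlier results of these data known, so the contrasts with all genes are not independent of the data. HLA-F, TAPBP and TAP2 were not called. In a fit on the 120 h libraries alone all 9 members were called, TAP2 as lower, and 4252 of the 16152 genes were called. Both decitabine 120 h libraries lay above both DMSO 120 h libraries for 8 of the 9 members, all but TAP2, and above all 5 DMSO libraries for the same number; 36.1% of all genes met the first condition and 27.1% the second.

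**Figure D2:**
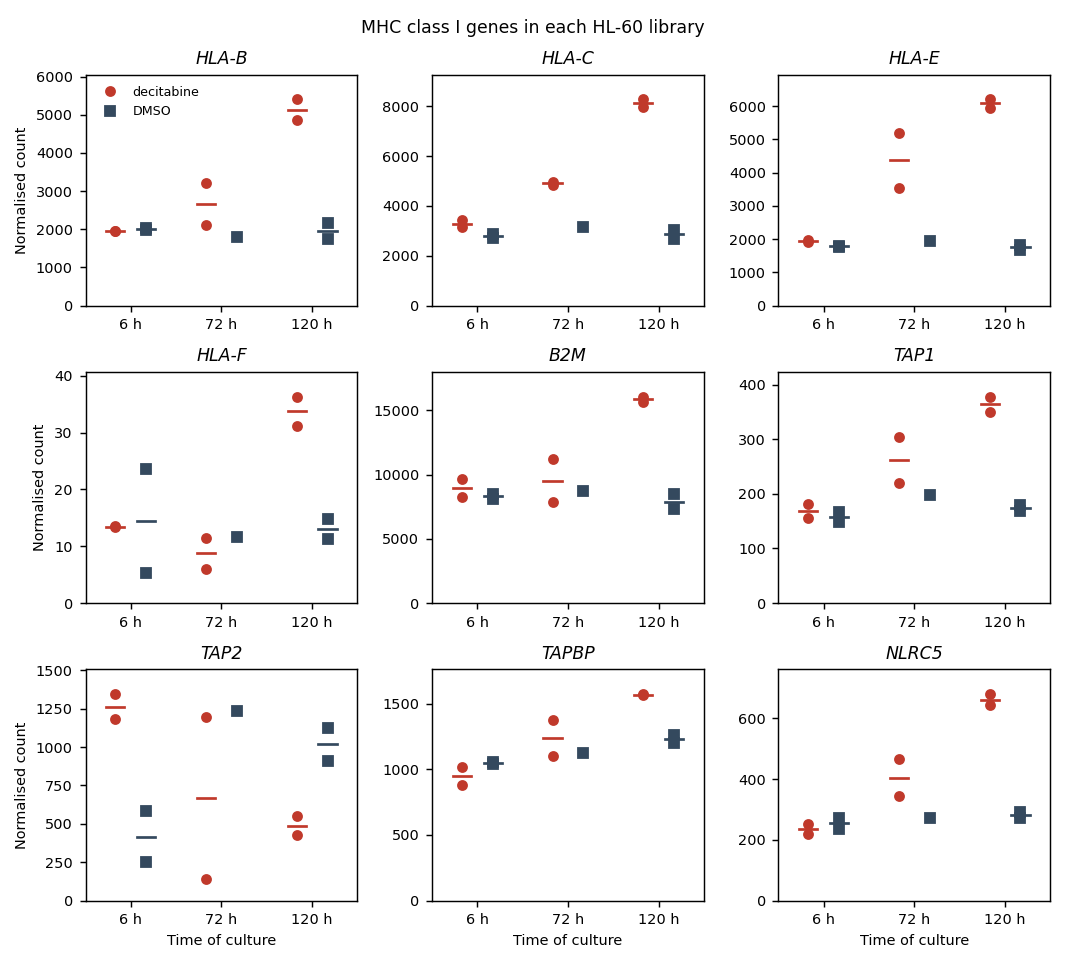
Normalised count (y axis, linear, from 0) of each member in every library by time (x axis), with decitabine as circles on the left and DMSO as squares on the right; short lines are group means, and DMSO at 72 h is a single library. At 120 h the decitabine libraries stand above the DMSO libraries in every panel except TAP2, and at 6 h the points lie close together in all panels but HLA-F and TAP2.

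HLA-E showed the largest fold of the heavy chains at 120 h. It had 5951 and 6202 normalised counts in decitabine 120 h cells, against 1832 and 1664 in DMSO 120 h cells. At 72 h it had 3535 and 5199 in decitabine cells, against 1932 in the DMSO library, and at 6 h 1912 and 1987 in decitabine cells, against 1804 and 1771 in DMSO cells. The treated libraries were thus above every DMSO library at 72 and 120 h, and the decitabine 72 h pair lay apart. HLA-E rose by 1.80 ± 0.19 on the log2 scale at 120 h (SE; limma adjusted p = 0.000767). It was also the only member called at 72 h, at 1.15 ± 0.23 (limma adjusted p = 0.0481), where 1.88% of all genes were called higher.

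HLA-C was the steadiest member. It had 7974 and 8275 normalised counts in decitabine 120 h cells, against 2681 and 3051 in DMSO 120 h cells. Its 72 h values were 4975 and 4831 in decitabine cells and 3159 in the DMSO library, and at 6 h 3142 and 3440 in decitabine cells and 2864 and 2730 in DMSO cells. The groups did not overlap at any of the 3 times, and replicates lay so close that only 1.96% of all genes had a smaller residual SD (0.0784 on the log2 scale, median of all genes 0.338). HLA-C rose by 1.51 ± 0.14 at 120 h (SE; limma adjusted p = 0.000472). Its difference at 72 h was 0.63 (limma adjusted p = 0.112).

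HLA-B had 4870 and 5405 normalised counts in decitabine 120 h cells, against 2154 and 1746 in DMSO 120 h cells. The 72 h values were 3202 and 2109 in decitabine cells and 1789 in the DMSO library, so that 1 treated library stood well above the DMSO range and the other lay inside it (1746 to 2154). At 6 h it had 1954 and 1943 in decitabine cells and 1979 and 2035 in DMSO cells. The treated libraries lay just below the controls at 6 h and above those of the same time at 72 and 120 h. HLA-B rose by 1.40 ± 0.21 at 120 h (SE; limma adjusted p = 0.00379) and differed by 0.54 at 72 h (limma adjusted p = 0.321).

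HLA-F was close to the filter. It had 36.3 and 31.2 normalised counts in decitabine 120 h cells, against 11.2 and 14.8 in DMSO 120 h cells. The 72 h libraries held 11.5 and 6.02 in decitabine cells and 11.6 in the DMSO library, and at 6 h 13.4 and 13.5 in decitabine cells and 23.6 and 5.28 in DMSO cells. The decitabine 120 h pair was the highest of all libraries, although the DMSO 6 h pair alone spanned 5.28 to 23.6. Its log2 difference of 1.32 ± 0.62 at 120 h was not called (limma adjusted p = 0.199).

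Summed over the 4 heavy chains, decitabine 120 h cells had 18832 and 19914 normalised counts, against 6678 and 6475 in DMSO 120 h cells. The decitabine 72 h libraries had 11725 and 12145, against 6892 in the DMSO library, and the 6 h libraries had 7021 and 7383 in decitabine cells, against 6671 and 6541 in DMSO cells. The sums of the decitabine 72 h pair were close, while their makeup was not. HLA-E made up 30.2% of the sum in replicate 1 and 42.8% in replicate 2, and HLA-B 27.3% in replicate 1 and 17.4% in replicate 2. In all other libraries the HLA-E share was 25.7 to 31.6%. Counts are not corrected for transcript length, so these shares are compared between libraries and not between genes.

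**Figure D3:**
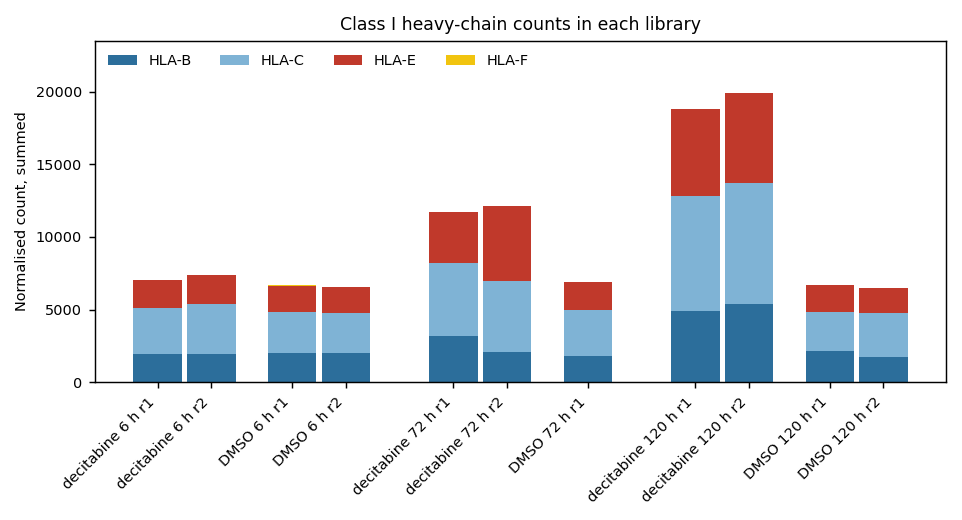
Stacked bars of the normalised counts of HLA-B, HLA-C, HLA-E and HLA-F (y axis, from 0) in each of the 11 libraries, with decitabine left of DMSO at each time; HLA-F is too low to be seen at this scale. The decitabine bars reach 11725 and 12145 at 72 h and 18832 and 19914 at 120 h, and the HLA-E segment is widest, as a share, in decitabine 72 h replicate 2.

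B2M, the light chain that every one of these heavy chains needs, had 15697 and 16069 normalised counts in decitabine 120 h cells, against 7313 and 8492 in DMSO 120 h cells. At 72 h it had 11227 and 7838 in decitabine cells and 8730 in the DMSO library, which lay between them. At 6 h it had 9698 and 8259 in decitabine cells and 8524 and 8129 in DMSO cells, which overlap. B2M rose by 1.01 ± 0.20 at 120 h (SE; limma adjusted p = 0.0125), and its difference at 72 h was 0.10 (limma adjusted p = 0.855). The ratio of B2M to the summed heavy chains was 0.834 and 0.807 in decitabine 120 h cells, against 1.1 and 1.31 in DMSO 120 h cells. The call at 120 h was lost without decitabine replicate 1 (limma adjusted p = 0.087), without decitabine replicate 2 (0.0915) and without DMSO replicate 1 (0.083) of that time.

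TAP1, the transporter subunit, had 349.9 and 378 normalised counts in decitabine 120 h cells, against 169 and 179 in DMSO 120 h cells. After 72 h the values were 305 and 220.4 in decitabine cells and 198 in the DMSO library, and at 6 h 182 and 155 in decitabine cells and 166 and 149 in DMSO cells. The groups were apart at 72 and 120 h and overlapped at 6 h. TAP1 rose by 1.06 ± 0.21 at 120 h (SE; limma adjusted p = 0.0124) and differed by 0.39 at 72 h (limma adjusted p = 0.461). Leaving out any 1 of the 4 libraries at 120 h ended the call: limma adjusted p was 0.0739 without decitabine replicate 1, 0.0946 without decitabine replicate 2, 0.0726 without DMSO replicate 1 and 0.0624 without DMSO replicate 2.

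TAP2, the partner subunit, did not follow TAP1. It had 548 and 425 normalised counts in decitabine 120 h cells, against 1127 and 911 in DMSO 120 h cells, and was the only member whose treated libraries both lay below that time's controls at 120 h. Values after 72 h were 139.6 and 1196 in decitabine cells and 1234 in the DMSO library. At 6 h it had 1183 and 1344 in decitabine cells and 249 and 584 in DMSO cells, the opposite order. Its log2 differences of 1.72 ± 0.83 at 6 h, -1.59 ± 1.02 at 72 h and -1.07 ± 0.83 at 120 h were not called (limma adjusted p = 1, 0.448 and 0.443). TAP2 had a residual SD of 1.06 on the log2 scale, and 94.5% of all genes had a smaller one. The 72 h value rests on decitabine replicate 1: it was -0.05 without that library (limma adjusted p = 0.96) and -3.13 without replicate 2 (limma adjusted p = 0.0194). The annotated gene AL669918.1 overlaps TAP2 on the same strand and had at most 16 normalised counts in any library.

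TAPBP encodes tapasin. It had 1574 and 1565 normalised counts in decitabine 120 h cells, against 1262 and 1204 in DMSO 120 h cells, a narrow gap with no overlap. At 72 h it had 1378 and 1105 in decitabine cells on either side of 1128 in the DMSO library, and at 6 h 881 and 1017 in decitabine cells and 1043 and 1054 in DMSO cells. Its log2 difference of 0.35 ± 0.16 at 120 h was not called (limma adjusted p = 0.191). It was called when either decitabine 72 h library was left out (limma adjusted p = 0.0351 without replicate 1 and 0.0348 without replicate 2).

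NLRC5, the class I transactivator, had 643 and 679.6 normalised counts in decitabine 120 h cells, against 271 and 290.1 in DMSO 120 h cells. At 72 h NLRC5 had 465 and 345 in decitabine cells and 272 in the DMSO library, and at 6 h 253 and 219.9 in decitabine cells and 271 and 237 in DMSO cells. Both treated libraries stood above all DMSO libraries at 72 and 120 h, and the groups overlapped at 6 h. NLRC5 rose by 1.23 ± 0.20 at 120 h (SE; limma adjusted p = 0.00481) and differed by 0.56 at 72 h (limma adjusted p = 0.271).

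**Figure D4:**
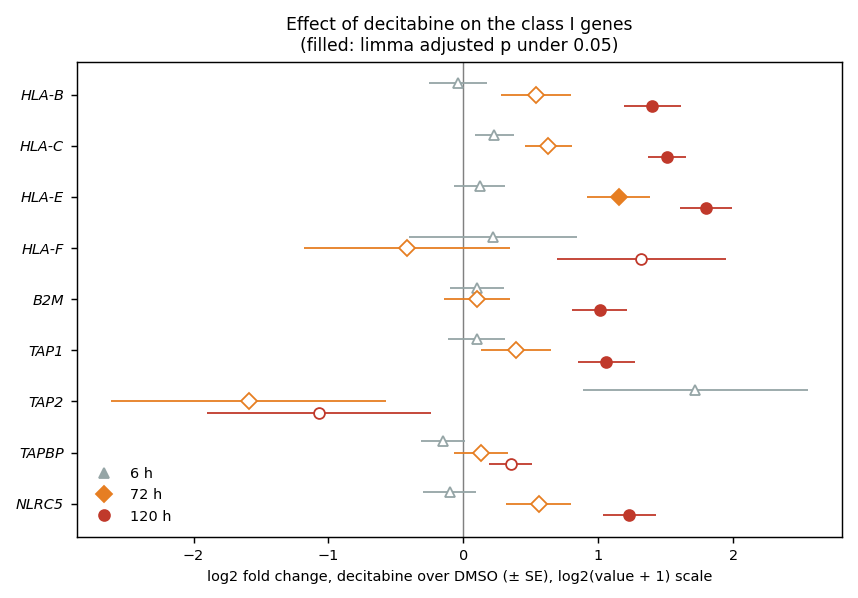
log2 fold change of decitabine over DMSO (x axis, log2(value + 1) scale, bars ± SE) for each member (y axis) at 6, 72 and 120 h; filled symbols have a limma adjusted p under 0.05. At 120 h 6 members are filled, between 1.01 and 1.80, at 72 h HLA-E alone is filled, and TAP2 has the widest bars and changes side.

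By time, 0 of the 9 members were called at 6 h, where limma called 0 of all genes (0%), 541 genes had an unadjusted p under 0.05 and the smallest adjusted p was 0.257. At 72 h, both treated libraries lay above the DMSO library for 5 members (37.5% of all genes did), below it for HLA-F and TAP2, and on both sides of it for B2M and TAPBP. They lay above all 5 DMSO libraries for HLA-C, HLA-E, TAP1 and NLRC5, or 4 of 9, against 18.2% of all genes. In decitabine 72 h replicate 1, 7 of the 9 members were higher than in replicate 2, all but HLA-E and TAP2. The share of all genes higher in replicate 1 is not given here. The count therefore cannot be read as particular to the members. The HLA-E call at 72 h was lost in 15 of 24 alternatives, among them leaving out any 1 of the 8 libraries of the other times (limma adjusted p = 0.0861 to 0.115).

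The DMSO groups were also compared with each other. Between DMSO cells at 120 h and at 6 h, limma called 0 members and 0 genes in all (0%), with 865 genes at an unadjusted p under 0.05, and the members' log2 differences ran from -0.08 for B2M to 0.23 for TAPBP, apart from TAP2 at 1.41. Between DMSO at 72 h and at 6 h it also called 0 genes (0%), with 456 at an unadjusted p under 0.05. Between decitabine cells at 120 h and at 72 h, 0.13% of all genes and 0 of the members were called. The members' log2 differences there were 0.24 for TAP2 to 1.89 for HLA-F, with limma adjusted p from 0.118 for HLA-C to 0.898 for TAP2. Without decitabine 72 h replicate 1, 7 members and 32.4% of all genes were called in that comparison, and without replicate 2, 1 member and 0.22% of all genes were.

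The effect of decitabine was also compared between times, as a difference of the log2 fold changes in the same fit. From 72 to 120 h, limma called 0 members and 0 of all genes (0%), with 1022 genes at an unadjusted p under 0.05. A change in the effect between these times was thus not shown. The members' differences were 0.22 for TAPBP to 1.74 for HLA-F. For the members this outcome depended on decitabine 72 h replicate 1. The number of all genes called also changed with the library left out, so this dependence is not particular to the members. Without decitabine 72 h replicate 1 the differences were 1.17 for HLA-B and B2M, 0.89 for HLA-C and NLRC5, and -1.02 for TAP2. The effect at 72 h minus that at 6 h was called for 0 members and for 0.613% of all genes, with HLA-E at 1.02 (limma adjusted p = 0.207). The effect at 120 h minus that at 6 h, a comparison added after the data were seen, was larger for 4 members, HLA-E, HLA-B, NLRC5 and HLA-C, by 1.27 to 1.67, where 4.27% of all genes were called in that direction.

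Genes around class I processing were taken list by list at 120 h, and their counts are to be read against the 9.91% of all genes called higher and 6% called lower at that time. In each list below, the count called in either direction was lowest in a fit without 1 of the 120 h libraries. It was highest without either decitabine 72 h library. The number of all genes called also changed with the library left out. Among 10 genes of peptide supply, the immunoproteasome subunits and trimming peptidases, 2 rose at 120 h and none fell, with a median log2 fold change of 0.26. PSMB8, an immunoproteasome subunit, had 725 and 773 normalised counts in decitabine 120 h cells and 389 and 427 in DMSO 120 h cells, and rose by 0.87 (limma adjusted p = 0.0145). LNPEP, an aminopeptidase of the endosomal route, rose by 0.54 (limma adjusted p = 0.0375). PSMB9, the subunit whose gene lies beside TAP1, had 50.9 and 62.6 in decitabine cells and 16 and 28.2 in DMSO cells, a difference of 1.37 that was not called (limma adjusted p = 0.0703). PSMB10 differed by -0.14 and the trimming enzyme ERAP1 by 0.61, neither called. Of 14 constitutive proteasome genes, PSME3, an activator subunit of nuclear proteasomes, fell by 0.65 and none rose. This count is near the share of all genes called lower, and the median was -0.41. Of 12 chaperones and cofactors of the endoplasmic reticulum, PDIA3 (ERp57), the tapasin partner of the loading complex, rose by 0.61 (limma adjusted p = 0.017), the other 11 did not pass the test, and the median was 0.21. That count is near the share of all genes called higher. TAPBPL, a tapasin relative that edits peptides outside that complex, differed by 0.05.

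Among 21 factors tied to class I promoters, 3 rose and 1 fell at 120 h, with a median of -0.09. These counts are near the 9.91% of all genes called higher and 6% called lower. IRF1, which binds interferon response elements, had 272 and 258 normalised counts in decitabine 120 h cells and 128 and 124 in DMSO 120 h cells, and rose by 1.06 (limma adjusted p = 0.0066). IRF2, which binds the same element, rose by 1.2, and KAT2B, a histone acetyltransferase, by 1.90. IRF8, a myeloid factor of this family, had 176 and 191 in decitabine 120 h cells and 1030 and 1008 in DMSO 120 h cells, and fell by 2.47 (limma adjusted p = 0.000119). IRF8 also fell at 72 h, by 1.5, as the only one of the 21 called at that time, when 0.31% of all genes were called lower. RFX5, the X-box subunit of the complex that NLRC5 is recruited by, had 449 and 398 in decitabine 120 h cells and 545 and 831 in DMSO 120 h cells, a difference of -0.67 that was not called (limma adjusted p = 0.0704). CIITA, the class II counterpart of NLRC5, differed by -1.72 and was not called.

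In the interferon pathway, 5 of 14 tested genes for receptors and signalling rose and none fell, of 23 listed, with a median of 0.92. The share of all genes called higher was 9.91%, and the number called in the list changed when 1 library was left out. The genes called were IFNGR2 (1.11) and IFNGR1 (1.11), the chains of the interferon-gamma receptor, SOCS1 (2.71), a feedback inhibitor of JAK signalling, IRF7 (2.11), which drives type I interferon genes, and JAK2 (0.96), a receptor kinase that the naming rule would have left out and that was added after its value was seen. SOCS1 was low, with 15.4 and 24.3 normalised counts in decitabine 120 h cells, against 2.94 and 1.48 in DMSO 120 h cells. IRF7 was as low, with 17 and 25.7 in decitabine 120 h cells, against 2.87 and 5.68 in DMSO 120 h cells. IFNG, IFNB1 and IFNL1 were listed at 0 in all 11 libraries. Of 33 interferon-stimulated genes 19 were tested, and 2 rose and none fell, with a median of 0.67. That count is near the 9.91% of all genes called higher. GBP2, a guanylate-binding protein, had 515 and 534 in decitabine 120 h cells and 68.8 and 40.2 in DMSO 120 h cells and rose by 3.29 (limma adjusted p = 0.00484); at 72 h it had 478 and 1179 in decitabine cells, against 40.4 in the DMSO library, and rose by 4.18 (limma adjusted p = 0.0166, and 0.0517 and 0.0521 without decitabine 120 h replicate 1 and replicate 2). IFIT2, an antiviral RNA-binding protein, rose by 1.79.

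Other products of the class I region and class I-like genes had a median of 1.94 for the 4 tested of 11 pseudogenes and transcribed fragments, of which 3 rose, and of 0.58 for the 7 tested of 16 class I-like genes, of which 1 rose. The number called in each of these lists changed when 1 library was left out. The 1 of 7 class I-like genes is near the 9.91% of all genes called higher. HLA-H, a heavy-chain pseudogene, had 1382 and 1268 normalised counts in decitabine 120 h cells and 355 and 324 in DMSO 120 h cells and rose by 1.96 (limma adjusted p = 0.00145), a value that may share reads with the heavy chains. HLA-L, another pseudogene, rose by 1.91 and HCP5, a non-coding RNA of the region, by 2.66. FCGRT, the heavy chain of the neonatal Fc receptor, which also pairs with B2M, had 259 and 265 in decitabine 120 h cells and 28.8 and 39.2 in DMSO 120 h cells and rose by 2.93 (limma adjusted p = 0.00122). Of 13 class II genes only CD74 and CIITA were tested, with a median of -1.35, and no class II chain was. CD74, the invariant chain, had 115 and 128 in decitabine 120 h cells and 221 and 265 in DMSO 120 h cells and fell by 0.99 (limma adjusted p = 0.0324). That call was lost without any 1 of the 4 libraries at 120 h (limma adjusted p = 0.0853 to 0.177). Of 15 genes for receptors that read class I or belong to their families, 7 were tested and 4 rose, all of the leukocyte immunoglobulin-like family: LILRB3 (3.10), LILRA5 (2.60), LILRB2 (2.31), an inhibitory receptor for class I, and LILRA2 (1.47). The number called in that list also depended on which library was left out. Of 14 regulators of class I surface levels 13 were tested, with a median of 0.06, against 0.07 over all genes. SPPL2A, an intramembrane protease, rose by 0.82 and none fell. That count is near the 9.91% of all genes called higher.

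**Figure D5:**
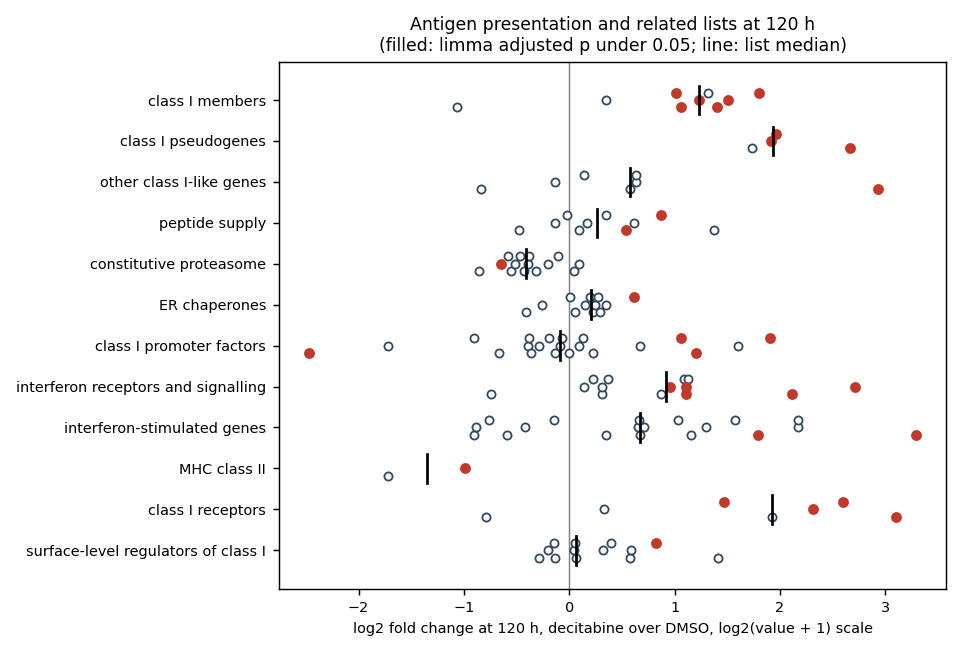
log2 fold change at 120 h, decitabine over DMSO (x axis, log2(value + 1) scale), of each tested gene in 12 lists (y axis), with filled points at a limma adjusted p under 0.05 and a vertical line at the list's median. The members, the class I pseudogenes and the class I receptors have medians of 1.23, 1.94 and 1.92, and the constitutive proteasome lies mostly left of 0 with a median of -0.41.

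Over 25 alternative settings at 120 h, HLA-B, HLA-C, HLA-E and NLRC5 were called in each, with a largest limma adjusted p of 0.0488 for NLRC5. Of the called genes named from the other lists, IRF2, IRF8, HLA-H, FCGRT and GBP2 were called in every alternative that gave them a value. The others lost their call in 1 to 10 alternatives, which included leaving out at least 1 of the 120 h libraries, with limma adjusted p up to 0.237.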

How the data were processed

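RNA of HL-60 cells was depleted of ribosomal RNA and sequenced as stranded single-end reads of 50 bases, per the labels' protocols. The authors deposited 1 table of a normalised signal per gene that is never negative. Per the submitters' processing notes, hg38, Salmon 1.2.1, STAR, featureCounts, DESeq2 and limma were used, with no role or order given; their gene annotation is not stated in the sources used here. In each library 59.4 to 65.5% of low values were whole multiples, to within 0.01, of that library's own step, which gave the estimated depths. Whole reads could not be had for the other values, and count models were left out. Normalised totals were 12815698 to 15959030, and 1 count was worth 0.407 to 0.961.

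Per the file headers, 12 library names stand over 11 columns of values. The names were taken to start at the symbol field, under which libraries of a group differed by 0.299 (mean of median absolute log2 differences) and those of different groups by 0.439; the other reading gave 0.429 within and 0.426 between groups. DMSO 72 h replicate 2 then has no values and was not analysed here. Every result rests on this reading.

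Values were taken as log2(value + 1), a scale that understates the change of low genes. The genes that reached 10 in 2 or more libraries were fitted with 1 mean per group over all 11 libraries in limma 3.58.1 (lmFit, eBayes with a trend; R 4.3.3), with 5 residual degrees of freedom, 8.4 after moderation. The lone DMSO 72 h library took its spread from the other groups. Tests were two-sided and adjusted by Benjamini-Hochberg over all 16152 genes, and the procedure was tested on simulated data. Gene positions are from GENCODE v29 and promoters from RefSeq, aligned with Biopython 1.88; tables and plots used Python 3.11.15, pandas 2.3.3 and matplotlib 3.10.9. Named from the other lists were at most 4 called genes with the smallest adjusted p per list, plus a fixed set needed for their roles, of which 1 is not reported here. The members and lists were chosen with earlier results of these data known. Alternatives changed the pseudocount, filter, scaling, variance model, weights, control set, libraries and replicate block.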

Additional observations from a re-analysis of the deposited data

Results flagged for a closer look

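The effect of decitabine differed between 120 h and 6 h for 4 members in a test of the difference itself. The difference of the log2 fold changes, 120 h minus 6 h, was 1.67 for HLA-E (limma adjusted p = 0.0122), 1.45 for HLA-B (limma adjusted p = 0.0317), 1.34 for NLRC5 (limma adjusted p = 0.0319) and 1.27 for HLA-C (limma adjusted p = 0.0115). In each of these genes both decitabine libraries exceeded both DMSO libraries at 120 h. This comparison was added after the data were seen, and 4.27% of all genes were called higher in it. Its calls were lost in 7 of 23 alternatives for HLA-E, 13 for HLA-B, 11 for NLRC5 and 5 for HLA-C, with the largest limma adjusted p between 0.0716 and 0.129.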

How the results depend on the processing

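The 4 calls at 120 h for HLA-B, HLA-C, HLA-E and NLRC5 held under all 25 alternatives, and the calls for B2M and TAP1 were lost only when a 120 h library was left out. A call at 72 h rests on a single DMSO library and a treated pair that lay apart, and without DMSO 72 h replicate 1 there is no value at 72 h. HLA-F had no value under the filter of 20 in 4 libraries. With 1 or 2 libraries a group, an effect that was not called is not shown to be absent. The cause of the changes below was not tested.

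The number of members called at 72 h, 1 in the report, was 0 with a pseudocount of 0.5, with no filter, without the trend, with robust moderation, with sample weights and with the libraries of that time alone, and 4 with all DMSO libraries as the control. At 120 h it was 6 in the report, 7 with sample weights and 8 with all DMSO libraries as the control. With the libraries of that time alone it was 9, TAP2 as lower. For the effect at 120 h minus that at 6 h it was 4 in the report and 7 with sample weights. It was 2 there with no filter, without the trend and with scaling to totals without FP671120.7. The number of all genes called, 353 at 72 h, was 80 with sample weights, 2917 with all DMSO libraries as the control and 0 with that time's libraries alone. At 120 h it was 2570, and 5031, 4340 and 4252 under these settings, in this order. At 6 h it was 3 without the trend and 1 each with all DMSO libraries and with that time's libraries alone. With no filter it was 6 for the effect at 120 h minus that at 72 h, 1 for DMSO 120 h against 6 h, 116 for DMSO 72 h against 6 h, 227 for decitabine 120 h against 72 h and 589 for the effect at 120 h minus that at 6 h. Without the trend it was 1 for the first 3 of these. Sample weights gave 29 for the effect at 72 h minus that at 6 h, 3 and 1 for DMSO at 120 and 72 h against 6 h, 0 for decitabine 120 h against 72 h and 3021 for the effect at 120 h minus that at 6 h. For the effect at 72 h minus that at 6 h it was 63 with scaling to totals and 61 without FP671120.7. For decitabine 120 h against 72 h it was 51 with a pseudocount of 5 and 38 with quantile normalisation.

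Leaving out each library in turn gave 0 to 3 genes called at 6 h, 143 to 4759 at 72 h and 798 to 4949 at 120 h, and 0 to 4 members at 72 h, 4 to 7 at 120 h and 0 at 6 h. It gave 6 to 3741 genes and 0 to 1 members for the effect at 72 h minus that at 6 h, 0 to 2901 genes and 0 to 4 members for 120 h minus 72 h, and 225 to 2988 genes and 0 to 8 members for 120 h minus 6 h. For DMSO 120 h against 6 h it gave 0 to 12 genes, for DMSO 72 h against 6 h 0, and for decitabine 120 h against 72 h 0 to 5185 genes and 0 to 7 members.

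The replicate numbers did not pair the libraries, since same-numbered libraries deviated together with correlations of -0.08 to 0.12. The replicate block gave 215 genes and 0 members at 72 h, 53 genes for the effect at 72 h minus that at 6 h and 1 gene for decitabine 120 h against 72 h. Under it the B2M effect at 72 h minus that at 6 h was 0.06 and HLA-F in DMSO 72 h against 6 h was -0.25.

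Signs turned only in values that were not called. At 6 h HLA-B became 0.01 with quantile normalisation, with scaling to totals and with all DMSO libraries, and 0.00 with scaling to totals without FP671120.7; TAP1 became -0.02 with all DMSO libraries. At 72 h B2M became -0.07 with quantile normalisation, -0.10 with scaling to totals and -0.06 without FP671120.7, and TAPBP -0.07 and -0.03 with these 2 scalings. In DMSO 120 h against 6 h HLA-C became -0.06 with scaling to totals, and HLA-E 0.01 with quantile normalisation and 0.00 with scaling without FP671120.7. In DMSO 72 h against 6 h HLA-F became -0.05 with a pseudocount of 5 and 0.00 with quantile normalisation. TAPBPL at 120 h became -0.26 with quantile normalisation. Leaving out each library in turn gave ranges that crossed 0. These were -0.76 to 1.21 for HLA-F and -0.01 to 0.22 for both B2M and TAP1 at 6 h, -0.16 to 0.36 for B2M and -0.03 to 0.29 for TAPBP at 72 h, and -0.48 to 0.59 for TAPBPL at 120 h. For TAP2 they were -1.02 to 2.07 in the effect at 120 h minus that at 72 h and -1.31 to 1.78 in decitabine 120 h against 72 h. In the effect at 72 h minus that at 6 h they were -1.63 to 0.34 for HLA-F and -0.26 to 0.26 for B2M. In DMSO 120 h against 6 h they were -0.20 to 0.10 for HLA-B, -0.06 to 0.13 for HLA-C, -0.10 to 0.04 for HLA-E, -0.82 to 1.15 for HLA-F and -0.19 to 0.03 for B2M, and in DMSO 72 h against 6 h -0.97 to 1.00 for HLA-F.

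Scaling moved the median log2 fold change of all genes at 120 h by -0.17 with quantile normalisation and 0.12 with scaling to totals, and the share of calls that were higher was 50.8 and 73%, against 62.3% as deposited. At 72 h the medians moved by -0.13 and -0.19, and the shares were 74.5 and 68.2%, against 85.8%.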

Other observations

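The genes whose levels over the 11 libraries were most like those of 4 members, by Pearson r of log2(value + 1), were ITM2B (0.990), BPI (0.987), ITGB7 (0.987) and PADI4 (0.985) for HLA-B and CRIM1 (0.992), PPP1R15A (0.992), JUN (0.991) and HK1 (0.991) for HLA-E. For B2M they were VOPP1 (0.980), NPC2 (0.979), CRACR2B (0.975) and SLC11A1 (0.975), and for NLRC5 NFIL3 (0.996), TIMP2 (0.992), PTAFR (0.991) and QPCT (0.990). BPI encodes a neutrophil granule protein, PADI4 an enzyme that citrullinates histones in neutrophils, and PTAFR the receptor for platelet-activating factor. These values describe 11 libraries that share the treated 120 h pair as their extreme, and carry no test.

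The members together took 0.273 and 0.296% of all counts in decitabine 120 h cells, against 0.117% in both DMSO 120 h libraries. In decitabine 72 h replicate 2, the chaperones CALR and CANX, named here after their values were seen, had 45683 and 76119 normalised counts, against 22751 and 29743 in replicate 1 and 19422 and 28303 in the DMSO library of that time.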
